A study of Mus musculus with 12 samples.

Results

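Genes of the activator protein 1 (AP-1) family and other immediate early transcription factors were followed in the lungs of newborn mice. The 10 genes were taken by symbol from a table of 52550 genes: Fos, Fosb, Fosl1 and Fosl2 (Fos family), Jun, Junb and Jund (Jun family), Atf3, the small Maf factor Maff, and the zinc finger factor Egr1. All 10 passed the filter on low counts and were among the 15885 protein-coding genes tested.

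WT (Adm+/+) and Adm+/- mice on a C57Bl/6J background received PBS or 6 mg/kg LPS from Escherichia coli O55:B5 by injection into the abdomen, once a day for 3 days from postnatal day 3. Whole lungs were frozen on postnatal day 5, 6 h after the last dose, and sequenced as 1 library per mouse, 3 in each of 4 groups. Adm+/- mice lack 1 functional allele of Adm, which encodes the vasodilator peptide adrenomedullin, in every cell and from conception, so a difference cannot be placed in a cell type. Replicates are named by library number, and values are given in the order 3, 4, 5 for WT PBS, 9, 10, 11 for WT LPS, 6, 7, 8 for Adm+/- PBS and 1, 2, 12 for Adm+/- LPS.

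AP-1 is a dimer of basic leucine zipper proteins. Jun proteins pair with each other or with Fos proteins, whereas Fos proteins need a partner, and the dimers bind the sequence TGACTCA or, more often with ATF partners, TGACGTCA. Immediate early genes are transcribed from regulators already present in the cell, often within minutes of a signal such as the binding of LPS to Toll-like receptor 4, and many of their messenger RNAs are short-lived. In the lung, AP-1 is known for its part in cytokine, protease and matrix gene expression. The lungs were taken hours after a repeated stimulus, and earlier times were not sampled.

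Total counts ran from 22382535 to 38062873 per library. Adm itself was at 3.96 to 7.09 CPM (TMM-scaled read counts relative to library size) in WT PBS, 4.46 to 8.15 CPM in WT LPS, 2.87 to 4.58 CPM in Adm+/- PBS and 3.74 to 6.28 CPM in Adm+/- LPS lungs. The log2 difference between Adm+/- and WT was -0.50 ± 0.32 (SE) after PBS and -0.55 ± 0.31 after LPS, with adjusted p of 0.999 and 0.480, and the groups overlapped. WT PBS replicate 5 and Adm+/- PBS replicate 6 stood apart, since protein-coding genes took 77.8% and 80.1% of their counts, where each of the other 10 libraries had 84.3% to 87.6%. Markers of type I and type II pneumocytes, endothelial cells and fibroblasts were present in every library. The endothelial sum of 7 markers was lower after LPS without overlap, at 2616 to 3053 CPM in WT PBS and 2172 to 2289 CPM in WT LPS lungs, and 2725 to 2964 CPM and 2420 to 2687 CPM in Adm+/-. Of all tested genes, 17.6% passed the threshold given below in WT and 25.0% in Adm+/-. Those past it and higher were 10.5% and 12.8%. In each genotype 2 of the 7 endothelial markers passed and fell, Kdr in both. The log2 fold change was positive for 1 of the 7 in WT and 3 in Adm+/-. Pecam1 was at 440.4 and 503 CPM in WT and 447 and 585 CPM in Adm+/- (mean, PBS then LPS). The sum of 6 fibroblast markers, most of it from collagen genes, was lower too, at 16576 to 44514 CPM and 11250 to 15812 CPM in WT, and 16012 to 29026 CPM and 12413 to 14396 CPM in Adm+/-. The fibroblast sums of 44514 and 29026 CPM were those of the 2 PBS libraries that stood apart. None of the 6 fibroblast markers passed in WT and only Tcf21, lower, in Adm+/-. Pdgfra was at 253 and 343 CPM in Adm+/-. Neutrophil markers rose with LPS in 9 of 10 genes in WT and 10 in Adm+/-, and monocyte and macrophage markers in 8 and 7 of 9. The summed level of 10 neutrophil markers was 59.5 to 185 CPM in WT PBS and 1698 to 2965 CPM in WT LPS lungs, and 40.7 to 68.3 CPM and 1606 to 1922 CPM in the Adm+/- groups. Adm+/- PBS lungs held 1008 to 1229 CPM of 9 monocyte and macrophage markers and Adm+/- LPS lungs 1678 to 2212 CPM, beside 1034 to 1275 CPM and 1642 to 2243 CPM in WT. Markers of skeletal muscle and squamous epithelium were high in WT LPS lungs. All 9 muscle markers and the 6 tested squamous markers rose there, against 1 and 0 in Adm+/-. The 9 muscle markers summed to 858 to 2055 CPM, against 18.3 to 54.3 CPM in the other 3 groups, and the 8 squamous markers to 30.8 CPM in replicate 10, 1689 CPM in replicate 11 and 3258 CPM in replicate 9, against 3.20 to 44.2 CPM elsewhere. The squamous marker Tmprss11b was at 0 in both PBS groups. Markers of T cells and thymocytes summed to no more than 12.8 CPM in any library. The part of these markers in the results below was not tested. In whole lung, more cells of a type and more RNA per cell cannot be told apart.

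**Figure D1:**
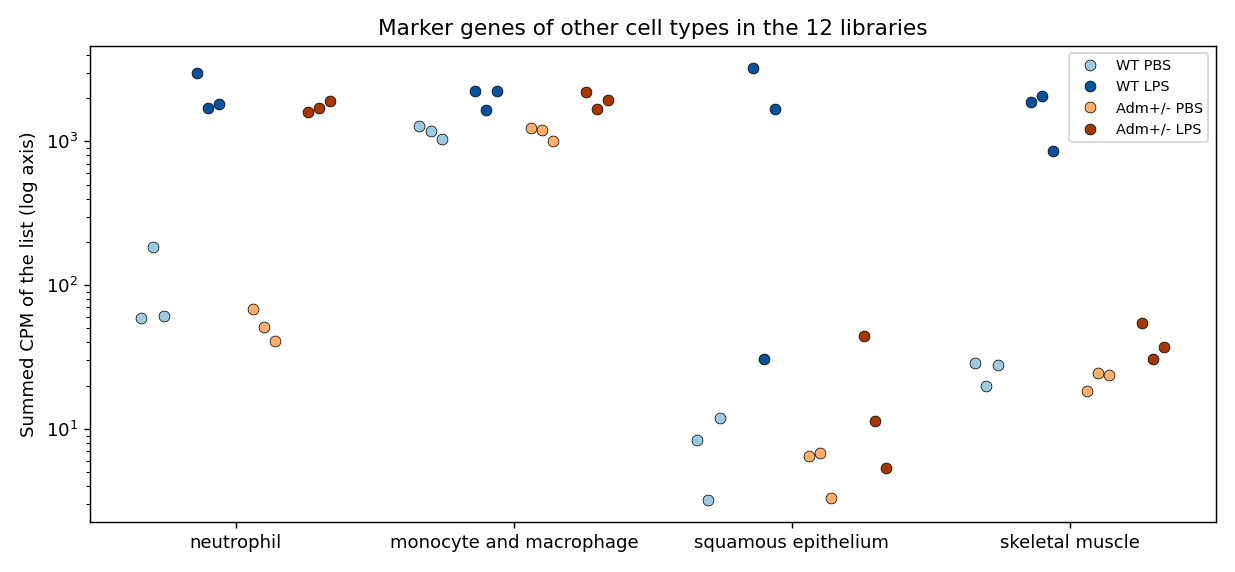
Summed CPM (log axis) of marker genes of neutrophils, monocytes and macrophages, squamous epithelium and skeletal muscle, with 1 point per library and a colour per group. Neutrophil and monocyte sums were higher in both LPS groups, whereas muscle markers reached 858 to 2055 CPM in WT LPS libraries only.

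Promoter stretches of 5 members are shown with the letters of known binding motifs in capitals. Fos and Fosl2 were called higher after LPS in both genotypes, and Junb and Maff in Adm+/- only. Jun, which can pair with Fos proteins, is also shown. RefSeq promoter windows (GRCm38.p6, the assembly also called mm10) were matched for 8 of the 10 genes. Fosl1 and Egr1 were not matched. Of the other members called after LPS, Atf3 held none of the motifs before its start, and the Fosb matches are given in words. Each run reads 5′ to 3′ on the strand of the gene and covers the 100 bases before a RefSeq start. Fos lies at chr12:85473790-85473889 (plus strand), Jun at chr4:95052223-95052322 (minus strand), Junb at chr8:84978749-84978848 (minus strand), and Maff has 2 of its 3 annotated starts shown, chosen because they hold a motif, with windows at chr15:79347420-79347519 and chr15:79348302-79348401 (plus strand). The stretch before the first Maff start, which is the Gencode gene start, held none of the motifs. For Fosl2, whose window overlaps an exon of a longer transcript, only 30 bases at chr5:32136282-32136311 (plus strand) are given.

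Fos: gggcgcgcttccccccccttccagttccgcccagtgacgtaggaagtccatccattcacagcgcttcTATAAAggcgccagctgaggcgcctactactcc

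Fosl2: atcggggaGGGAGTCCCCCagagctgccaa

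Jun: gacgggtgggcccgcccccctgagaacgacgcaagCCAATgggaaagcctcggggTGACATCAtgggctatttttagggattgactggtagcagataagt

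Junb: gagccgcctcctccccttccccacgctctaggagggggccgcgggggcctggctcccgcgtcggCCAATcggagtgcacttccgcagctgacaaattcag

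Maff, start at 79347520: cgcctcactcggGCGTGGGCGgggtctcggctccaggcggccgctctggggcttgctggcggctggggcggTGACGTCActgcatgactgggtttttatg

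Maff, start at 79348402: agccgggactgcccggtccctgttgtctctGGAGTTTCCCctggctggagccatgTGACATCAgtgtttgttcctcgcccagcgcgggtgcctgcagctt

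The whole RefSeq windows span 300 bases, and shares are given over the 100 bases before the start of all 32851 windows, on either strand, to match the runs shown. In Fos, the TATA box letters TATAAA stood at -33 to -28 from the start, and 5.56% of all such stretches held them. The variant AP-1 site TGACATCA stood at -45 to -38 in both Jun and the later Maff start, and was held by 1.96%. The earlier of the shown Maff starts held the ATF site TGACGTCA, which reads alike on both strands (1.15%), and the EGR site GCGTGGGCG (0.326%). CCAAT, the NF-Y site, was present in Jun and Junb and in 18.9% of stretches. Letters of the NF-kappa B site, searched by its consensus on both strands, stood in the later Maff start (1.5% of stretches). Over the whole 300 bases (4.51% of windows) they also stood in Fosl2, Fos and Fosb. The overlapping Fosl2 matches lay at -182 to -173 on the gene strand and -181 to -172 on the opposite strand. Those in Fos (-214 to -205) and Fosb (-188 to -179) are not shown. The EGR site GCGGGGGCG was in Fosl2 at -79 to -71 and in Fosb at -50 to -42, and in 1.64% of stretches. TGACTCA was in none of the whole windows of these members, against 5.20% of all whole windows. A match is a string of letters and not a bound site.

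After LPS, 3 of the 10 genes passed the threshold in WT lungs and 6 in Adm+/- lungs. The threshold was an adjusted p below 0.05 over all tested genes and an absolute log2 fold change above 0.5. In WT mice, Fos, Fosl2 and Atf3 rose and none fell, beside 17.6% of all tested genes past the threshold and 10.5% past it and higher. In Adm+/- mice, Fos, Fosl2, Junb, Atf3 and Maff rose and Fosb fell, beside 25.0% of all tested genes past the threshold and 12.8% past it and higher. When the fold change was itself tested against 0.5 (edgeR's glmTreat or limma-voom treat), no member passed in WT, and 5 or 4 passed in Adm+/-. The 3 LPS libraries did not overlap the 3 PBS libraries for 4 members in WT, all higher, and for 8 members in Adm+/-, 6 of them higher. The shares over all tested genes were 36.2% and 53.7%. The members' median log2 fold change was 0.32 in WT and 0.99 in Adm+/-, with medians over all tested genes of 0.01 and -0.01. WT and Adm+/- responses rest on different libraries.

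**Figure D2:**
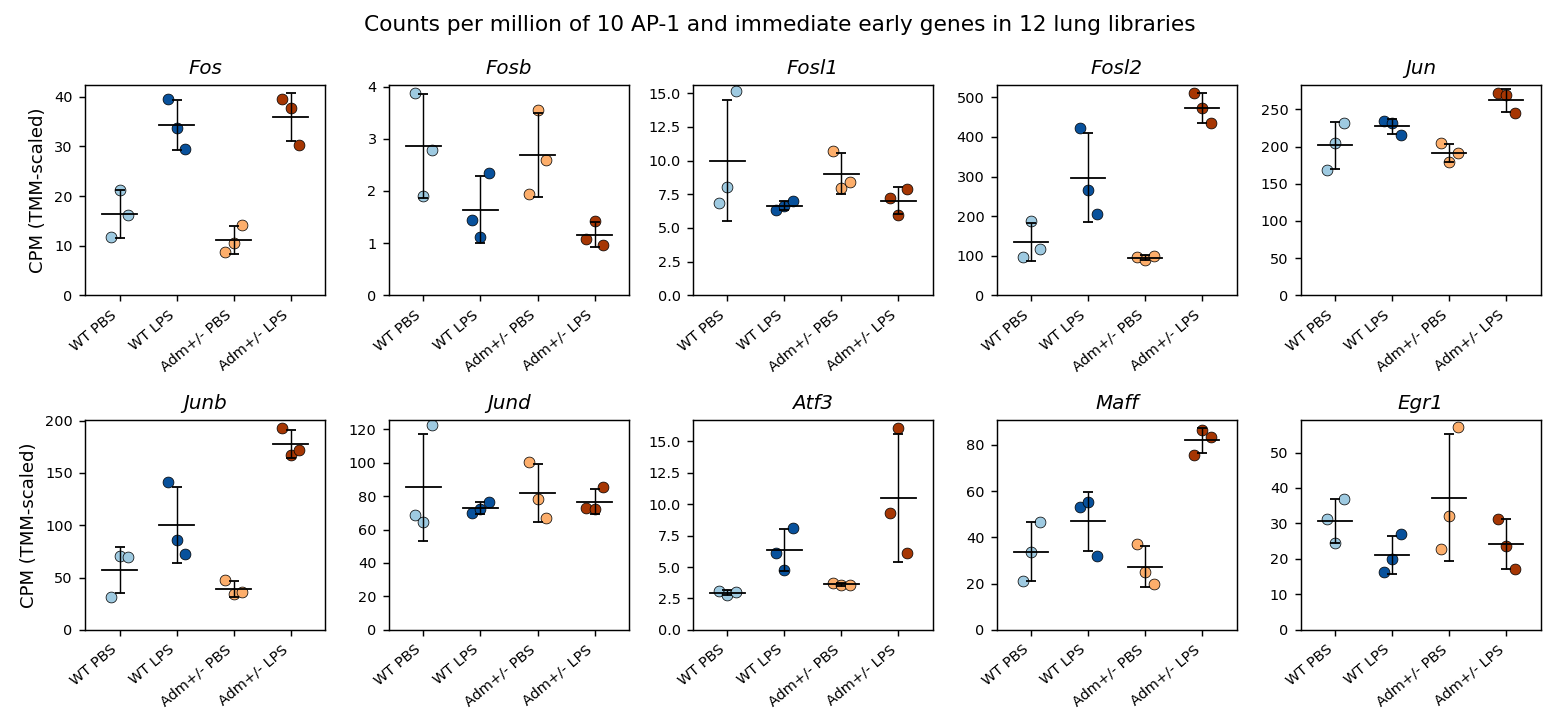
CPM of each of the 10 genes (linear axes from 0) in the 4 groups, with 1 point per library, the group mean as a bar and the SD as an error bar (n = 3). Fosl2, Junb and Maff were highest in the Adm+/- LPS libraries, and Fosb lay below its PBS libraries there.

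Among the Fos family, Fosl2, which encodes Fra-2 and lies at chr5:32135801-32157842, had the most counts. It was at 96.5, 189 and 116 CPM in WT PBS and at 423, 265 and 204 CPM in WT LPS lungs. In Adm+/- mice, PBS lungs had 97.2, 88.6 and 98.8 CPM, and LPS lungs had 510.4, 472 and 436 CPM. Every LPS library exceeded every PBS library of its genotype, and the 3 Adm+/- LPS lungs exceeded all 3 WT LPS lungs. The WT groups were the more spread, with a wild-type PBS lung (replicate 4) close to the lowest WT LPS lung. That PBS lung had a neutrophil marker sum of 185 CPM, the highest among PBS libraries. Among WT LPS libraries, sums of 2965, 1698 and 1828 CPM in replicates 9, 10 and 11 stood beside 423, 265 and 204 CPM of Fosl2. In Adm+/- LPS replicates 1, 2 and 12, sums of 1606, 1694 and 1922 CPM stood beside 510.4, 472 and 436 CPM. There the order of Fosl2 was the reverse of that of the markers. Fosl2 rose 2.22-fold in WT (log2 1.15 ± 0.27 SE, adjusted p = 0.0119) and 4.99-fold in Adm+/- (log2 2.32 ± 0.28, adjusted p = 0.000172). The WT call was lost without WT LPS replicate 9 (log2 0.80, adjusted p = 0.0590) and with the 6 WT libraries fitted alone (log2 1.15, adjusted p = 0.0766).

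Fos, the archetype of the family, lies at chr12:85473890-85477273. WT PBS lungs had 11.7, 21.3 and 16.1 CPM and WT LPS lungs 39.6, 33.7 and 29.5 CPM. In Adm+/- mice the PBS lungs had 8.79, 10.5 and 14.2 CPM and the LPS lungs 39.7, 37.7 and 30.4 CPM. The LPS lungs of both genotypes overlapped each other and lay above all PBS lungs. Fos rose 2.09-fold in WT (log2 1.07 ± 0.23 SE, adjusted p = 0.00801) and 3.21-fold in Adm+/- (log2 1.68 ± 0.23, adjusted p = 0.000380). Both calls held in each fit that left out 1 library, but the WT call was lost when the fold change was tested against 0.5.

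Fosb and Fosl1 (Fra-1) did not rise. Fosb, whose shorter splice form lacks the activating tail, was the lowest of the 10 genes. It was at 3.88, 1.89 and 2.78 CPM in WT PBS and 1.45, 1.12 and 2.35 CPM in WT LPS lungs, which overlapped. Adm+/- PBS lungs had 1.95, 3.55 and 2.58 CPM and Adm+/- LPS lungs 1.08, 1.42 and 0.962 CPM, without overlap. These levels rest on 27 to 105 counts a library. In Adm+/- Fosb fell by 1.23 on the log2 scale (SE 0.36, adjusted p = 0.0224). That call was lost without Adm+/- PBS replicate 7, Adm+/- LPS replicate 1 or Adm+/- LPS replicate 12, at log2 -0.98 to -1.19 and adjusted p of 0.0735 to 0.0892. The WT value was -0.80 ± 0.35 (adjusted p = 0.118).

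Fosl1 was at 6.83, 8.01 and 15.1 CPM in WT PBS and 6.35, 6.61 and 7.01 CPM in WT LPS lungs. In Adm+/- mice it was at 10.7, 7.94 and 8.43 CPM after PBS and 7.22, 5.95 and 7.91 CPM after LPS. The highest values of both PBS groups were in the 2 libraries with the low protein-coding share. Neither genotype passed the threshold, at log2 -0.58 ± 0.26 in WT (adjusted p = 0.134) and -0.36 ± 0.26 in Adm+/- (adjusted p = 0.327). Without WT PBS replicate 3 the WT value was -0.80 with an adjusted p of 0.0456. The gene shares sequence with Ccdc85b on the opposite strand.

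The Jun family differed among its members. Jun lies at chr4:95049034-95052222 and encodes the partner that can also pair with itself. It was at 169, 204 and 232 CPM in WT PBS and 234, 232 and 216 CPM in WT LPS lungs. WT PBS replicate 5 lay above WT LPS replicate 11 and no other pair crossed. Haplodeficient PBS lungs had 204, 179 and 191 CPM and Adm+/- LPS lungs 273, 269.8 and 245 CPM, with no overlap. The log2 fold change was 0.17 ± 0.12 in WT (adjusted p = 0.296) and 0.45 ± 0.12 in Adm+/- (adjusted p = 0.0120), the latter short of the 0.5 required. Jun passed in Adm+/- without Adm+/- LPS replicate 12 (0.50, adjusted p = 0.0233) and without both low-share PBS libraries (0.50, adjusted p = 0.00310).

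Junb, a Jun protein that can hold back Jun on some promoters, lies at chr8:84974484-84978718. WT PBS lungs had 31.6, 70.2 and 70.0 CPM and WT LPS lungs 141, 85.6 and 72.8 CPM. The WT groups did not overlap, but WT LPS replicate 11 lay only just above the PBS lungs. In Adm+/- mice the gene was at 47.9, 34 and 36 CPM after PBS and at 193, 168 and 172 CPM after LPS. All 3 Adm+/- LPS lungs exceeded all WT LPS lungs. Junb did not pass in WT (log2 0.81 ± 0.30, adjusted p = 0.0763; 0.0364 by DESeq2) and rose 4.52-fold in Adm+/- (log2 2.18 ± 0.31, adjusted p = 0.000462). Prdx2 overlaps Junb on the opposite strand, and Junos overlaps Jun. The part of reads from these genes in the counts was not tested.

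Jund, which is known for steady expression in resting cells, was at 68.5, 64.7 and 122 CPM in WT PBS and 69.8, 72.4 and 76.7 CPM in WT LPS lungs. Adm+/- PBS lungs had 100.4, 77.9 and 66.7 CPM and Adm+/- LPS lungs 72.7, 72.0 and 85.4 CPM. The groups overlapped in both genotypes, and the values of 122 and 100.4 CPM were those of the 2 libraries with the low protein-coding share. The log2 fold change was -0.22 in WT, with a 95% interval of -0.71 to 0.26, and -0.09 in Adm+/-, with an interval of -0.58 to 0.40. Without those 2 libraries the values were 0.13 and 0.09.

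Atf3, an ATF family factor known to restrain Toll-like receptor responses, lies at chr1:191170296-191218039. It was at 3.11, 2.77 and 3.03 CPM in WT PBS and 6.10, 4.78 and 8.08 CPM in WT LPS lungs. After PBS, Adm+/- lungs had 3.74, 3.58 and 3.54 CPM, and after LPS 9.31, 16.0 and 6.13 CPM. PBS lungs were close together and LPS lungs spread, with Adm+/- LPS replicate 2 the highest. Atf3 rose 2.13-fold in WT (log2 1.09 ± 0.31 SE, adjusted p = 0.0297) and 2.89-fold in Adm+/- (log2 1.53 ± 0.31, adjusted p = 0.00324). Leaving out any 1 of 5 WT libraries (all but LPS replicate 10) ended the WT call, at log2 values of 0.87 to 1.12 and adjusted p of 0.0537 to 0.0939. Adm+/- kept its call in all such fits.

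Maff, at chr15:79346621-79359076, encodes a small Maf protein that lacks an activating domain and acts through its partners. It was at 21.2, 33.7 and 46.6 CPM in WT PBS and 53.3, 55.2 and 32.1 CPM in WT LPS lungs, which overlapped. The Adm+/- PBS lungs had 37.1, 25.1 and 19.7 CPM and Adm+/- LPS lungs 75.7, 86.4 and 83.4 CPM, which lay above every other library of the series. Maff rose 3.00-fold in Adm+/- (log2 1.59 ± 0.30 SE, adjusted p = 0.00249), and the WT value was 0.47 ± 0.30 (adjusted p = 0.269).

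Egr1, a zinc finger factor outside AP-1 that shares upstream signals with Fos, did not pass in either genotype. It was at 31.1, 24.4 and 36.8 CPM in WT PBS and 16.2, 20.0 and 27.0 CPM in WT LPS lungs. Adm+/- PBS lungs had 22.7, 32 and 57.2 CPM and Adm+/- LPS lungs 31.3, 23.8 and 17.2 CPM. The groups overlapped in both genotypes. The log2 fold change was -0.55 (95% interval -1.27 to 0.17) in WT and -0.63 (-1.35 to 0.09) in Adm+/-. Leaving out both low-share PBS libraries moved the Adm+/- value to -0.88 with an adjusted p of 0.0474.

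WT LPS replicates 9 and 11 had the high squamous markers. Replicate 10 had the highest muscle marker sum, at 2055 CPM, beside 1881 CPM in replicate 9 and 858 CPM in replicate 11. With replicate 10 as the only WT LPS library, the log2 fold change was 1.04 for Fos, 0.98 for Fosl2 and 0.69 for Atf3, with adjusted p of 0.113, 0.0941 and 0.463. None of the 10 genes passed in WT in this fit, and the calls over all genes dropped from 2791 to 759 with the smaller arm. It assumes that the lone library varies like the other groups.

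**Figure D3:**
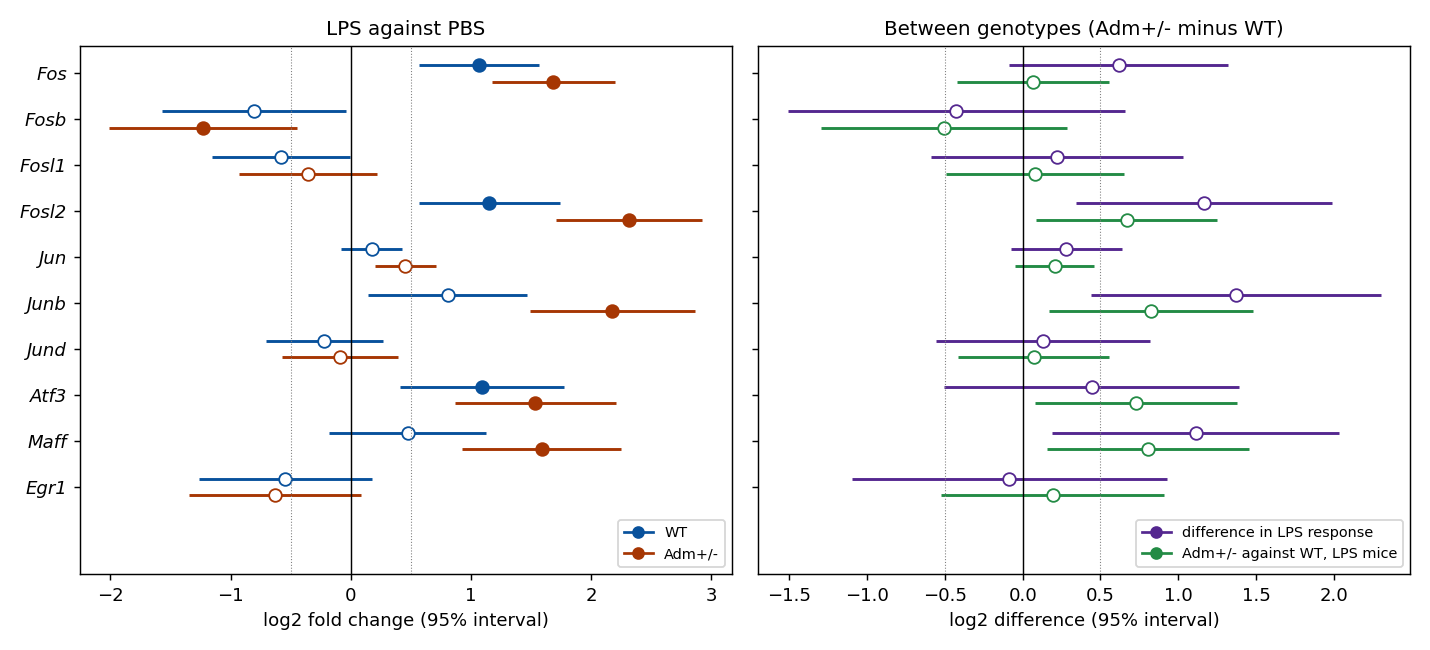
Log2 fold change after LPS in each genotype (left) and log2 difference between genotypes (right) for the 10 genes, as points with 95% intervals, filled where past the threshold, with dotted lines at an absolute value of 0.5. Filled points number 3 in WT and 6 in Adm+/-, and there is none in the right panel.

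The study asked how the LPS response differs with Adm genotype. The difference in response, Adm+/- minus WT on the log2 scale, passed the threshold for none of the 10 genes in the edgeR fit over all 12 libraries. It passed for 0.145% of all tested genes. The DESeq2 and limma-voom fits also called none of the 10, and 3 of the 10 had an unadjusted p under 0.05, as did 1247 of the 15885 genes. The difference was positive for 8 members, with a median of 0.36. Junb had the highest value, 1.37 (95% interval 0.44 to 2.30, adjusted p = 0.408). Fosl2 followed at 1.17 (0.34 to 1.99, adjusted p = 0.421) and Maff at 1.11 (0.19 to 2.03, adjusted p = 0.508). In these 3 genes the intervals lay above 0, but the adjustment over all genes was not passed. Fos had a difference of 0.62 (-0.09 to 1.32), Atf3 0.44 (-0.51 to 1.39) and Jun 0.28 (-0.08 to 0.64). Fosl1, Jund, Egr1 and Fosb ranged from -0.43 to 0.22, each with an interval across 0.

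Between LPS-treated mice, Adm+/- against WT, none of the 10 genes passed the threshold by any of the 3 tools, beside 2.05% of all tested genes. Of the members, 4 had an unadjusted p under 0.05, as did 2275 of all genes. Junb was 1.77-fold as high in Adm+/- (log2 0.83 ± 0.30 SE, adjusted p = 0.208), and Maff was 1.75-fold as high (0.80 ± 0.30, adjusted p = 0.216). Atf3 stood at 0.73 ± 0.30 (adjusted p = 0.276) and Fosl2 at 0.67 ± 0.27 (adjusted p = 0.262). Fosl2, Jun, Junb and Maff had no overlap between the 3 Adm+/- and 3 WT lungs, all with Adm+/- higher. The share over all tested genes was 24.6%. Fos differed by 0.07 (95% interval -0.42 to 0.56), and its groups overlapped.

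In PBS-treated mice no gene of the 15885 passed between genotypes (0%), with 344 at an unadjusted p under 0.05, and none of the 10 did. The lowest log2 differences were those of Fos (-0.55 ± 0.23), Junb (-0.54 ± 0.30) and Fosl2 (-0.50 ± 0.27), and each had an adjusted p of 0.999. For Fos the 95% interval ran from -1.06 to -0.04. Atf3 was the only member whose libraries did not overlap, at 3.54 to 3.74 CPM in Adm+/- and 2.77 to 3.11 CPM in WT (log2 0.28 ± 0.32), and 4.99% of all tested genes did not overlap there. The difference in response uses these same libraries, so its value is the LPS difference less the PBS difference, which was negative for Fosl2 (-0.50), Junb (-0.54) and Maff (-0.31).

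Levels of different genes were set side by side as CPM per kb of exon, with the exons of all annotated transcripts of a gene merged. The merged length was 9680 bases for Fosl2, 6243 for Fosb and 1668 (Jund) to 4484 (Egr1) for the other members. The order and shares below depend on these lengths. Jun had the highest level in all 4 groups, at 63.3 in WT PBS, 71.3 in WT LPS, 60.1 in Adm+/- PBS and 82.3 CPM per kb in Adm+/- LPS lungs. After PBS, Jund was next at 51.1 in WT and 49.0 in Adm+/-, and its libraries overlapped those of Jun. In WT LPS lungs Jund (43.7) and Junb (43.4) followed Jun, overlapping each other but not Jun. In Adm+/- LPS lungs Junb was next at 77.1, overlapping Jun. Fosl2 (48.9) and Jund (46.0) were not separated by their libraries there, and Maff (31.6) and Fos (15.3) followed without overlap. Egr1 (5.37), Atf3 (4.87) and Fosl1 (3.46) lay below, with overlap between neighbours, and Fosb was lowest at 0.185. The order in Adm+/- PBS lungs below Jund was Junb (17.1), Maff (10.5), Fosl2 (9.80), Egr1 (8.31), Fos (4.74), Fosl1 (4.44), Atf3 (1.68) and Fosb (0.431). Neighbours from Maff to Fosl1 in that order overlapped in their libraries.

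Summed per length, the 4 Fos family genes reached 26.2 ± 6.94 CPM per kb (SD, n = 3) in WT PBS and 48.8 ± 13.6 in WT LPS lungs, and 19.4 ± 1.36 and 67.8 ± 5.65 in the Adm+/- groups. The share of Fosl2 in the sum was higher after LPS without overlap in Adm+/-, whereas the WT libraries overlapped. It was 52.3% ± 7.25 and 61.8% ± 6.13 in WT, and 50.5% ± 1.40 and 72.1% ± 0.460 in Adm+/-. Fos kept 22.5% to 30.5% in the 4 groups, whereas Fosl1 went from 22.9% ± 3.84 to 5.14% ± 1.02 in Adm+/- and from 19.2% ± 7.99 to 7.10% ± 2.16 in WT. The Jun family sum was 139 ± 34.7 and 159 ± 16.4 CPM per kb in WT, and 126 ± 16.4 and 205 ± 6.56 in Adm+/-. Junb made up 13.5% ± 0.898 of it in Adm+/- PBS and 37.5% ± 1.63 in Adm+/- LPS lungs, and 17.6% ± 5.07 and 26.9% ± 6.89 in WT. Jund went from 38.6% ± 3.59 to 22.4% ± 2.50 in Adm+/- and from 36.2% ± 6.41 to 27.9% ± 4.01 in WT. The shares were described and not tested, and they sum to a whole within a family, so one rising lowers the others.

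**Figure D4:**
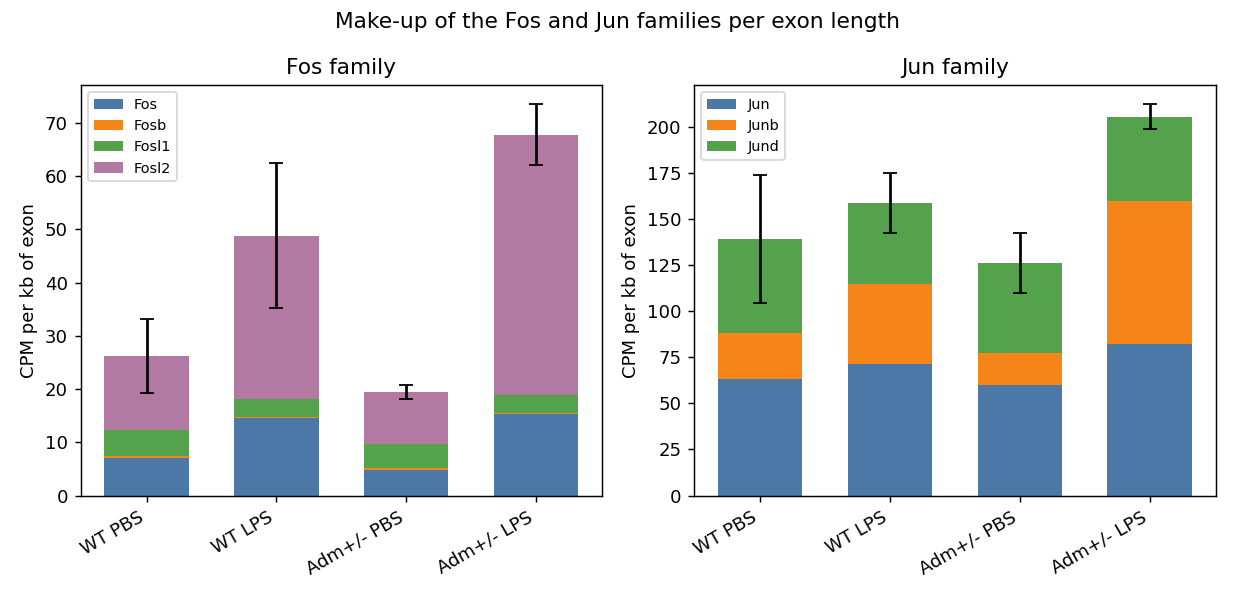
Mean CPM per kb of exon, stacked by gene, for the Fos family (left) and Jun family (right) in the 4 groups, with the SD of the family sum as an error bar (n = 3). Fosl2 filled 72.1% of the Fos family bar and Junb 37.5% of the Jun family bar in Adm+/- LPS lungs.

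Genes with the most similar profile over the 12 libraries were found for each member by the root mean square difference of centred log2 CPM. The libraries share treatment and genotype, so this is a description. Fosl2 was closest to Jade2 (0.118), Spsb1 (0.147) and Il4ra (0.180), the interleukin 4 receptor chain. Junb was closest to Sbno2 (0.154), Il4ra (0.171) and Sphk1 (0.217), and Maff to Ramp3 (0.174), a receptor activity-modifying protein, Gadd45g (0.193) and Sdc4 (0.194). Nearest to Fos were Adap2 (0.180), Ffar2 (0.210) and Eva1c (0.225). Atf3 had no neighbour as close, with Cxcl16, Ackr3 and Cd86 at 0.346 to 0.350. Among the 10 genes themselves, the nearest pairs were Fosl1 with Jund (0.191) and Fosl2 with Junb (0.247).

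Counts of the related lists are read beside all tested genes, of which 17.6% passed in WT and 25.0% in Adm+/- (10.5% and 12.8% higher). Of 9 Batf, Jdp2 and ATF genes, 1 rose in WT and 4 in Adm+/-, and none fell, with median log2 fold changes of 0.27 and 0.25. Jdp2, a repressor that dimerises with Jun, rose in both (0.69 ± 0.20 and 0.93 ± 0.20, adjusted p = 0.0292 and 0.00467). Atf4, the factor of the integrated stress response, and Batf, which needs Jun partners, rose in Adm+/- at 0.65 ± 0.12 and 1.38 ± 0.29 (adjusted p = 0.00223 and 0.00430). Atf2 and Atf7 did not pass, at 0.13 to 0.27 in the 2 genotypes.

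Of 10 other Maf and CNC factors, 3 rose in WT and 5 rose and 1 fell in Adm+/-, with medians of 0.38 and 0.73. Nfe2, a myeloid and erythroid factor, rose by 1.20 ± 0.19 in WT and 0.76 ± 0.18 in Adm+/-. Bach1, a repressor of oxidative stress genes that pairs with small Maf proteins, rose in Adm+/- (0.87 ± 0.13, adjusted p = 0.000696), as did Mafk (0.72 ± 0.14, adjusted p = 0.00247). Maf fell by 0.78 (SE 0.18, adjusted p = 0.00750) in Adm+/-. Nfe2l1, the gene with the most counts of the list, did not pass in either genotype.

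Other immediate early transcription factors had 1 of 14 tested genes higher in WT and 5 in Adm+/-, and none lower. Myc rose in both, at 0.72 ± 0.20 and 1.39 ± 0.20 (adjusted p = 0.0256 and 0.000474). Klf6, the gene with the most counts of the list, rose in Adm+/- by 0.60 ± 0.12, Btg2 by 0.59 ± 0.11 and Csrnp1 by 1.59 ± 0.25. Klf2, an endothelial factor, was at 0.29 and 0.17 and did not pass. Of 15 other immediate early genes, 4 rose and 1 fell in WT, and 9 rose and 1 fell in Adm+/-, with medians of 0.38 and 1.01. Zfp36, whose product degrades cytokine messengers, rose by 0.99 ± 0.25 and 1.64 ± 0.25, and Errfi1, an inhibitor of EGF receptor signalling, by 0.93 ± 0.27 and 1.74 ± 0.28. Plk2 fell by 0.94 (SE 0.17) in WT and by 1.12 (SE 0.17) in Adm+/-. Sgk1 did not pass (0.39 and 0.36). Ier3, a survival gene, was the single gene of the lists that was higher in Adm+/- than in WT after LPS (0.78 ± 0.16, adjusted p = 0.0317). Arc was the single one lower (-1.72 ± 0.39, adjusted p = 0.0468), at means of 0.636 and 2.09 CPM.

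Upstream of AP-1, the counts of signalling genes past the threshold stood beside 17.6% of all tested genes in WT and 25.0% in Adm+/-. Of 6 genes of SRF and its cofactors, which drive Fos and Egr1, Srf alone passed and only in WT, where it fell by 0.76 (SE 0.24, adjusted p = 0.0433). In Adm+/- Srf was at -0.67 ± 0.24 (adjusted p = 0.0531), and Elk3, Elk4 and Mkl2 did not pass in either genotype. Of 21 MAP kinases and their activators, 2 rose and 1 fell in WT, and 2 rose and 2 fell in Adm+/-, with medians of 0.05 and 0.13. Map3k8, the kinase that links Toll-like receptors to ERK, rose by 1.14 ± 0.31 and 1.97 ± 0.32. The p38 isoform gene Mapk13 rose by 1.36 ± 0.22 and 1.18 ± 0.22, and Map2k6, an activator of p38, fell by 1.33 (SE 0.28) and by 2.53 (SE 0.29). Mapk14, Mapk3 and Map3k1 lay between -0.21 and -0.07 and did not pass.

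Of 10 MAP kinase phosphatases, which switch these kinases off, 3 rose and 2 fell in each genotype. Dusp2 rose by 2.48 ± 0.53 in WT and 3.50 ± 0.55 in Adm+/-. Dusp1 rose by 0.86 ± 0.24 and 1.12 ± 0.24, and Dusp16 by 0.81 ± 0.21 and 1.36 ± 0.21. Dusp10 fell by 0.91 (SE 0.22) and by 1.38 (SE 0.22). Dusp6, a feedback inhibitor of ERK, did not pass (-0.25 and -0.18). Dusp1 is also in the list of other immediate early genes.

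Genes reported elsewhere as AP-1 targets had the highest medians of the lists. Of 18 tested, 9 rose and 2 fell in WT, and 12 rose and 1 fell in Adm+/-, with median log2 fold changes of 1.04 and 1.80. Mmp9, a gelatinase stored in neutrophils, rose from a mean of 7.30 to 126 CPM in WT and from 4.98 to 75.3 CPM in Adm+/- (4.11 ± 0.39 and 3.92 ± 0.39, adjusted p = 0.000112 and 7.68e-05). Hmox1, the heme oxygenase that small Maf partners also regulate, rose by 1.93 ± 0.23 and 1.87 ± 0.23. Sphk1 rose by 1.15 ± 0.22 and 2.14 ± 0.22, and Cd44, a hyaluronan receptor, by 0.70 ± 0.21 and 1.08 ± 0.21. Ccnd1, a cyclin that AP-1 drives in growing cells, fell by 0.73 (SE 0.17) and by 0.54 (SE 0.17), and the matrix gene Tnc fell by 1.12 (SE 0.23) in WT and was at -0.59 ± 0.23 in Adm+/-. The difference in response passed the threshold for no gene of these lists. The neutrophil and macrophage marker sums moved with LPS beside these counts as given above.

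**Figure D5:**
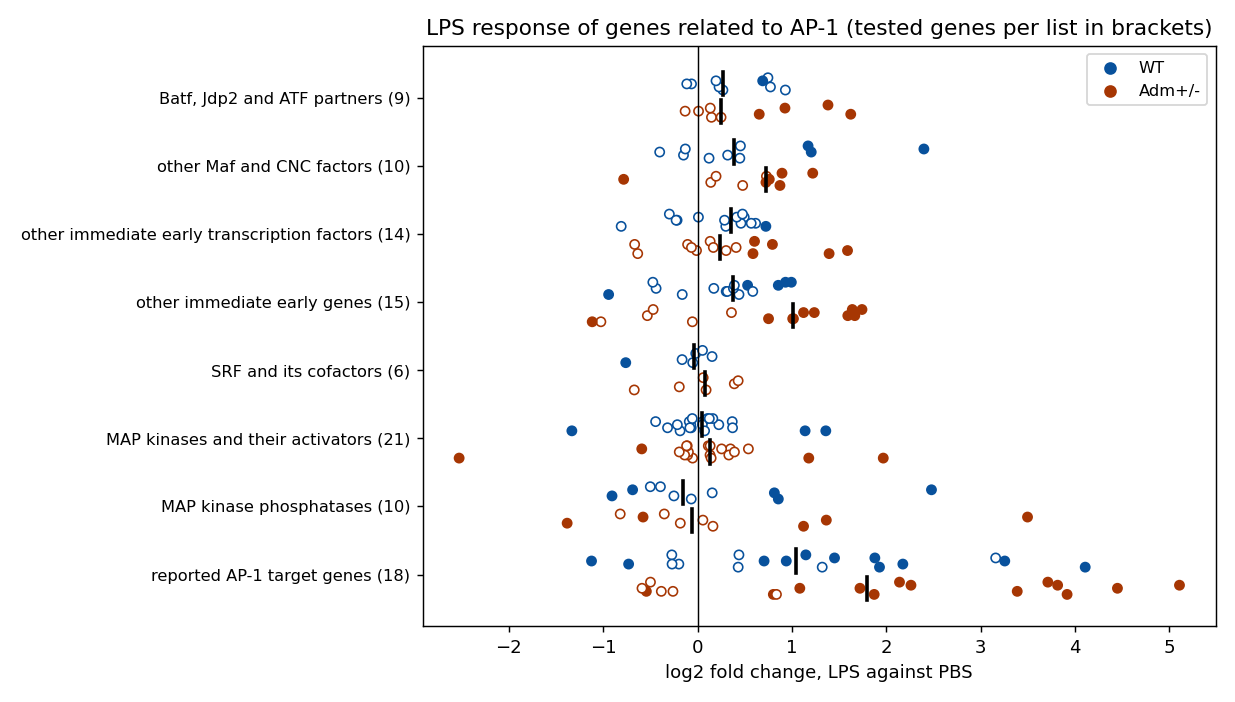
Log2 fold change after LPS of each tested gene of 8 related lists in WT and Adm+/-, filled where past the threshold, with the list median as a black bar and the number of tested genes in brackets. The AP-1 target list had the highest medians, 1.04 in WT and 1.80 in Adm+/-.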

How the data were processed

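Reads of rRNA-depleted, directional libraries were trimmed, aligned to mm10 with HISAT2 and counted per Gencode gene with featureCounts by the authors, and the deposited counts are raw whole numbers without normalization or filter. The strand option and Gencode release are not given in the sources used here. Counts of protein-coding genes passing filterByExpr (15885 of 21950) were scaled by TMM and tested with edgeR 4.0.16 (R 4.3.3) by the quasi-likelihood F-test, two-sided, in 1 fit with 1 coefficient per group, and Benjamini-Hochberg adjusted p-values over all tested genes. A gene passed at adjusted p below 0.05 and absolute log2 fold change above 0.5. The study's methods name limma, which was run as an alternative (limma 3.58.1), as was DESeq2 1.42.0. The SE is the absolute log2 fold change divided by the square root of F, and 95% intervals use the fit's total degrees of freedom. CPM values are TMM-scaled. Log2 CPM for profile likeness used a prior count of 2, and 3 genes were named per member. From each related list the text names the 3 genes with the highest mean CPM and, where any passed in a comparison, the 2 with the smallest p, except 1 gene that is not reported here. Exon lengths, locations and overlaps came from Gencode M21, which held 99.7% of the table's gene identifiers. The members and lists were chosen with earlier results of these data known. The fitting code was tested on simulated counts. Each library came from 1 mouse, and no 2 libraries of a group held identical counts. The p-values rest on the spread between mice within groups, pooled over the 4 groups of 3 mice. One combination, without WT LPS replicates 9 and 11, was chosen after seeing the data.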

Additional observations from a re-analysis of the deposited data

How the results depend on the processing

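The count of members past the threshold in Adm+/- was 4 to 6 under all alternatives except 8 without WT PBS replicate 5 and Adm+/- PBS replicate 6, where Jun (0.50) and Egr1 (-0.88) joined. Without Adm+/- LPS replicate 12, Jun (0.50) took the place of Fosb and the count stayed at 6. In WT it was 3, and fell to 0 with edgeR's glmTreat against 0.5 (1001 genes past, against 2791), 0 with limma-voom treat against 0.5 (542 genes), and 0 with WT LPS replicates 9 and 11 out (759 genes). In Adm+/- both treat tests left 5 and 4 members and 1695 and 1139 genes, against 3968. Fitting only the 6 WT libraries gave 1152 genes. Leaving out 1 library at a time gave 1 to 3 members in WT, the lowest without WT LPS replicate 9, where only Fos remained. Limma-voom gave 2 (Atf3 lost at 1.05, adjusted p = 0.0631) and DESeq2 4 (Junb joined). For the difference in response and both comparisons of genotypes the count was 0 under every setting run.

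Signs turned only for changes that never passed. Without WT PBS replicate 5 and Adm+/- PBS replicate 6, Jund was at 0.13 in WT and 0.085 in Adm+/-, the difference in response was -0.06 for Fosl1 and -0.04 for Jund, and Adm+/- against WT in PBS was 0.08 for Fosb, 0.15 for Fosl1 and 0.12 for Jund. With WT LPS replicates 9 and 11 out, Fosb was at 0.12 for the difference and 0.038 for Adm+/- against WT in LPS. Leaving out 1 library at a time or those 2 PBS libraries together, Jund ranged from -0.39 to 0.13 in WT and -0.22 to 0.085 in Adm+/-. The difference ranged from -0.48 to 0.36 for Egr1, -0.19 to 0.44 for Fosl1 and -0.21 to 0.30 for Jund. Adm+/- against WT in PBS ranged from -0.17 to 0.68 for Egr1, -0.33 to 0.22 for Fosb, -0.36 to 0.28 for Fosl1, -0.19 to 0.039 for Jun and -0.23 to 0.29 for Jund. In LPS mice the range was -0.040 to 0.41 for Egr1, -0.028 to 0.19 for Fos, -0.013 to 0.19 for Fosl1 and -0.0099 to 0.12 for Jund. The causes were not tested. No paired analysis was possible because the replicate numbers are library numbers that no 2 groups share. The planned second gene length was not run, since the count table carries no length. With 3 mice a group, the SE of the LPS changes ran from 0.12 for Jun to 0.36 for Fosb.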

Other observations

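The members that did not pass in either genotype also had close neighbours in profile over the 12 libraries. Fosl1 was nearest to Klc2 (0.068), Ehmt2 (0.0743) and Map3k11 (0.0755), and Jund to Tmem165 (0.0668), Triobp (0.0774) and Znhit2 (0.0876), as root mean square differences of centred log2 CPM. Jun was nearest to Trak1 (0.0473), Tpm3 (0.0639) and Hdac4 (0.0644). Egr1 had wider neighbours, Lypd1 (0.222), Hoxa7 (0.237) and Stag3 (0.244). Jun and Jund varied little in themselves, with a root mean square distance from their own mean of 0.209 and 0.256, so that many genes lie close to them.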
